A study of Homo sapiens with 6 samples.

Results

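Ribosome biogenesis genes were followed in JHH-4, an established line from a human hepatocellular carcinoma. The 40 genes were taken by symbol from a list that covers RNA polymerase I, the small nucleolar ribonucleoproteins and the assembly factors of both ribosomal subunits. All 40 were found among the 14034 rows of the gene count table, of which 12420 carry a gene name. One group of 3 libraries came from JHH-4 cells in which a plasmid carrying the primary microRNA drove overexpression of hsa-miR-885-5p, and the other group of 3 from control JHH-4 cells labelled WT. The sources used here do not say what the control cells were given, nor whether the plasmid was kept stably. The submitters describe the 3 libraries of each group as technical replicates, so the p-values measure only the spread between such libraries.

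Ribosomes are built in the nucleolus. RNA polymerase I copies the ribosomal DNA into one long precursor, and small nucleolar RNAs, held in box C/D and box H/ACA particles, guide methylation and pseudouridylation of that precursor. Processome and assembly factors then fold and cut it into the RNAs of the small and large subunits. The pathway is among the costliest that a growing cell runs, many of its genes are known targets of the transcription factor MYC, and an enlarged nucleolus is a common feature of liver cancer cells.

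Most of the 40 genes were lower with miR-885-5p, by modest amounts. With edgeR's quasi-likelihood test and Benjamini-Hochberg adjustment over all 14034 genes, 26 fell, 3 rose and 11 did not pass the threshold of 0.05 on the adjusted p. The background was 26.5% of all tested genes lower and 26.3% higher, against 65% and 7.5% of the 40. The median log2 fold change (miR-885-5p over control) was -0.22 for the 40 genes and 0.00 for all tested genes, and the 40 values ran from -0.55 for NCL to 0.35 for POLR1B. In 26 genes every miR-885-5p library lay below every control library and in 5 every one lay above, where 30.3% and 30.2% of all tested genes did so. All 40 genes passed the filter on low counts, and the smallest count of any of them in any library was 1420, for GAR1.

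**Figure D1:**
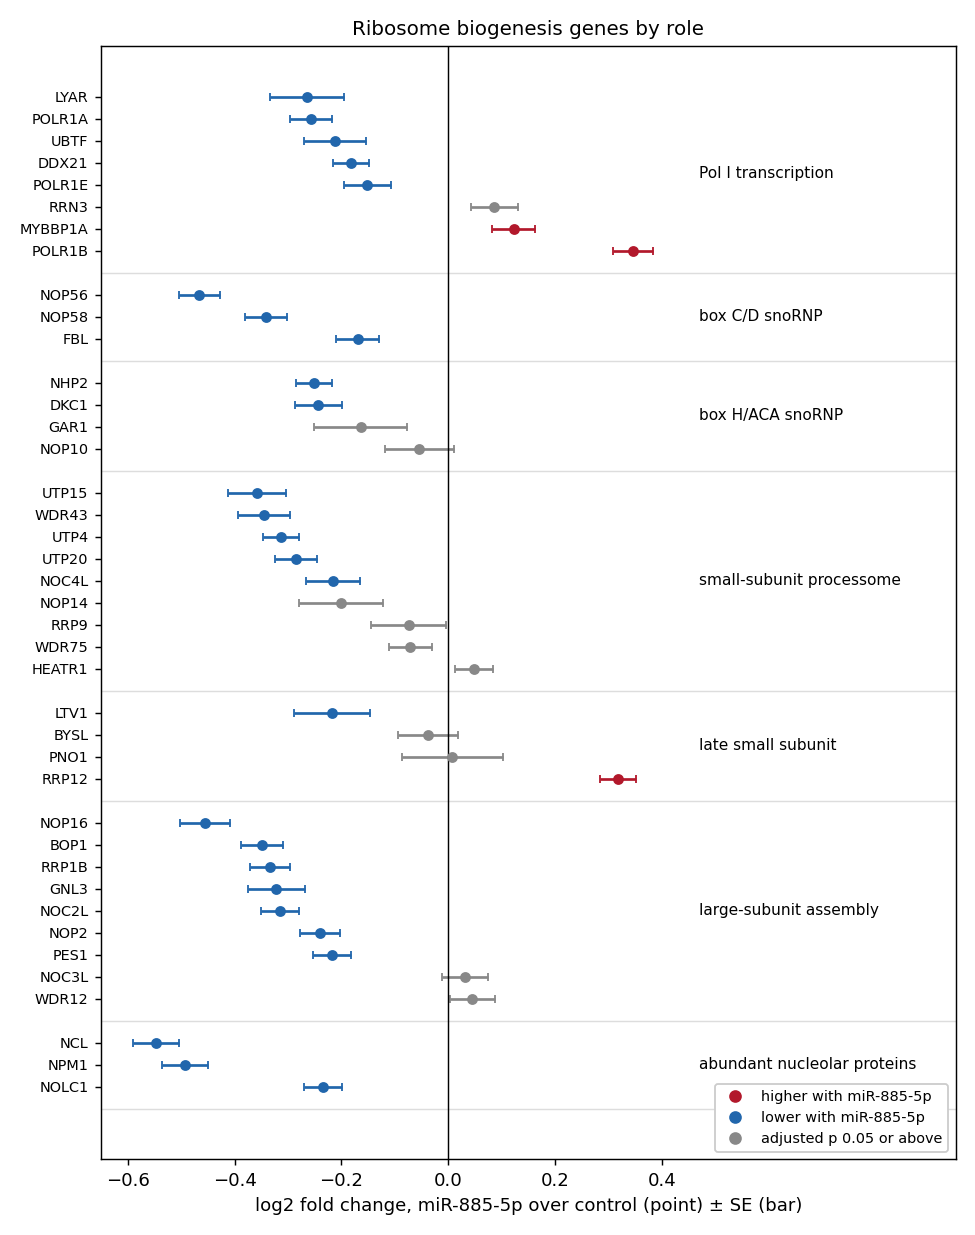
Log2 fold change of each of the 40 genes, miR-885-5p over control, on the horizontal axis, as a point with its standard error as a bar, grouped down the page by role. Blue points are the 26 genes that fell, red points the 3 that rose (POLR1B, RRP12 and MYBBP1A) and grey points the 11 that did not pass the threshold.

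Library totals ran from 46382314 to 56409821 counts in the miR-885-5p group and from 48327113 to 49694754 in the control group. The chi-square per degree of freedom between the counts of 2 libraries was 7.95 to 40.5 within groups and 96.0 to 136 between groups, so no library was a copy of another within sampling noise. Control library 3 stood apart on the second principal component, which held 11.99% of the variance. Without it 28 of the 40 genes fell and 3 rose, and the share of all tested genes in that fit is not given here. Among liver markers FGB and KRT8 fell and SERPINA1 and KRT18 did not pass. ALB, AFP, APOA1, APOA2, APOB, TTR, TF and HNF4A were not found by symbol among the rows of the gene count table. The summed level of the 4 tested markers named here was 1927 to 2004 CPM (counts scaled to a common library size) with miR-885-5p and 2285 to 2376 CPM in control cells, nearly all of it from KRT8 and KRT18. Of 10 fibroblast and endothelial markers 5 were tested: PDGFRB, LUM and PECAM1 rose, and COL1A1 and KDR did not pass. The sum of all 5 was 30.5 to 31.7 CPM with miR-885-5p and 17.1 to 20.3 CPM in control cells. Of 7 leukocyte markers CD14 (lower) and CD68 (did not pass) were tested, with a sum of 125 to 128 CPM with miR-885-5p and 118 to 139 CPM in control cells. The part of these markers in the results was not tested. In bulk RNA, fewer cells of a kind and less RNA per cell cannot be told apart.

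The microRNA and its seed matches among the 40 genes are shown first. The mature strand is given with its seed, bases 2 to 8, in capitals, as RefSeq gives it on GRCh38.p14 (chr3:10394531-10394552, minus strand). A messenger RNA pairs with the seed through GTAATGG (a 7mer-m8 site) or, with a following A, through GTAATGGA (an 8mer site); TAATGGA alone is a 7mer-A1 site. In the longest 3′ untranslated region (3′ UTR) of the protein-coding transcripts in GENCODE 29 (GRCh38), 2 of the 40 genes, or 5%, held an 8mer or 7mer-m8 site, against 8.01% of 12308 tested genes with such a region. These are POLR1A and UTP15, and their sites are shown with the match in capitals on the mRNA strand, beside that of WDR43, which holds a 7mer-A1 site; all 3 of these genes fell.
hsa-miR-885-5p: uCCAUUACacuacccugccucu
POLR1A, 8mer: ttaatcaaaatGTAATGGAgattgatcatc
UTP15, 7mer-m8: tgcttcagctgGTAATGGgactgcatcggt
WDR43, 7mer-A1: atttaaattacTAATGGAtcaaagaacaat

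The POLR1A site lies at chr2:86025195-86025202 (minus strand), beginning at base 2221 of a 3′ UTR of 7207 bases. The UTP15 site lies at chr5:73580636-73580642 (plus strand), at base 542 of 3283, and that of WDR43 at chr2:28947610-28947616 (plus strand). WDR12 holds 3 matches of the 7mer-A1 type and had a log2 fold change of 0.05 (adjusted p = 0.401 in edgeR's quasi-likelihood test). The other 36 genes hold none of the 3 site types, and 23 of these fell and 3 rose. A match is a description of the letters and does not show that the site is used.

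An element of the start regions was counted as well. The E-box CACGTG, which reads the same on both strands and is the core motif bound by MYC with MAX, was searched in the window from 250 bases before to 50 bases after each gene's start (RefSeq, GRCh38.p14). Of the 40 genes 34 had a window in the table, and 14 of these 34, or 41.2%, held it. It was held by 10.2% of 9882 tested genes with a window, by 7.43% of all 27305 windows, by 27.2% of 114 other ribosome biogenesis factors and by 4.76% of 63 cytosolic ribosomal protein genes. Of the 15 matches in the 14 genes, 14 lay within 50 bases of the start and 10 lay after it. The median GC content of the windows was 64.5% for the 34 genes and 65% for tested genes.

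The stretch from 50 bases before to 50 bases after the start is shown on the gene's own strand, with the E-box in capitals. The 6 genes with a match and the smallest adjusted p come first, then MYBBP1A, which has a match and rose, then NCL and NPM1, which fell most and have no match in the longer window.
UTP4, chr16:69132599-69132698: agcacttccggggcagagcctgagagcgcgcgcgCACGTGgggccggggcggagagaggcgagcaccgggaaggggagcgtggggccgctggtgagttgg
UTP20, chr12:101280055-101280154: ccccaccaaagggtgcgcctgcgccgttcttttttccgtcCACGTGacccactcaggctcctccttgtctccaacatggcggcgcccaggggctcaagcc
WDR43, chr2:28894617-28894716: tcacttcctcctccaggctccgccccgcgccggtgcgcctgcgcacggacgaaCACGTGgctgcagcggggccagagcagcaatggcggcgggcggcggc
NOP2, chr12:6568242-6568341: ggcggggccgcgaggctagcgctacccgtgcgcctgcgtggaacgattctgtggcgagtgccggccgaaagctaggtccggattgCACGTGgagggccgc
PES1, chr22:30591861-30591960: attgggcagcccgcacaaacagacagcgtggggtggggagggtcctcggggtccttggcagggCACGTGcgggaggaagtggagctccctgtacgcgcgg
FBL, chr19:39846330-39846429: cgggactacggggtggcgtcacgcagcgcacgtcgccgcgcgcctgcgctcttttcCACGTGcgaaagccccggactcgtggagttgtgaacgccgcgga
MYBBP1A, chr17:4555335-4555434: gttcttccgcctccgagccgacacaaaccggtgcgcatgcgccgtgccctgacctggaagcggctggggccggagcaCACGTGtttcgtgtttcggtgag
NCL, chr2:231464435-231464534: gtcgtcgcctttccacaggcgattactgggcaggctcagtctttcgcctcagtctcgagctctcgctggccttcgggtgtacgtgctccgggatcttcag
NPM1, chr5:171387799-171387898: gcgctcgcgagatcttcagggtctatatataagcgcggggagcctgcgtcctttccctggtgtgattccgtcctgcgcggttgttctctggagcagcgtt

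Genes that fell were found both with and without the E-box. Of the 14 genes with it 7 fell and 1 rose (median log2 fold change -0.19), and of the 20 genes without it 14 fell and 1 rose (median log2 fold change -0.25). The 6 genes with no window in the table were POLR1E, NOP58, RRP12, BOP1, RRP1B and NOLC1. No match in a window says only that these letters are not in it.

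The largest falls were those of 2 abundant nucleolar proteins. NCL, which encodes nucleolin, a histone chaperone and RNA-binding protein that assists transcription of the ribosomal DNA, had 907, 879 and 929.7 CPM in miR-885-5p libraries 1 to 3, against 1348, 1365 and 1256 CPM in control libraries 1 to 3 (CPM scaled by trimmed mean of M-values, TMM). All 3 miR-885-5p libraries were well below all 3 control libraries, and the log2 fold change was -0.55, with an SE of 0.04 (adjusted p = 6.24e-06). NPM1, which encodes nucleophosmin, a chaperone that also carries ribosomal particles between nucleolus and cytoplasm, had 1358, 1270 and 1363 CPM with miR-885-5p, against 1913, 1910 and 1793 CPM in control cells. Its groups did not overlap either, and its log2 fold change was -0.49 with an SE of 0.04 (adjusted p = 1.28e-05). NOLC1, a phosphoprotein that binds small nucleolar ribonucleoproteins and moves between nucleolus and Cajal body, fell less, with 319, 314 and 328 CPM in miR-885-5p libraries and 375, 384 and 371 CPM in control libraries (log2 fold change -0.24, SE 0.04, adjusted p = 3.80e-04). GENCODE 29 lists 45 pseudogenes named after NPM1 and 2 named after NCL, and the sources used here do not say how reads shared with such copies were counted, so these levels are uncertain.

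**Figure D2:**
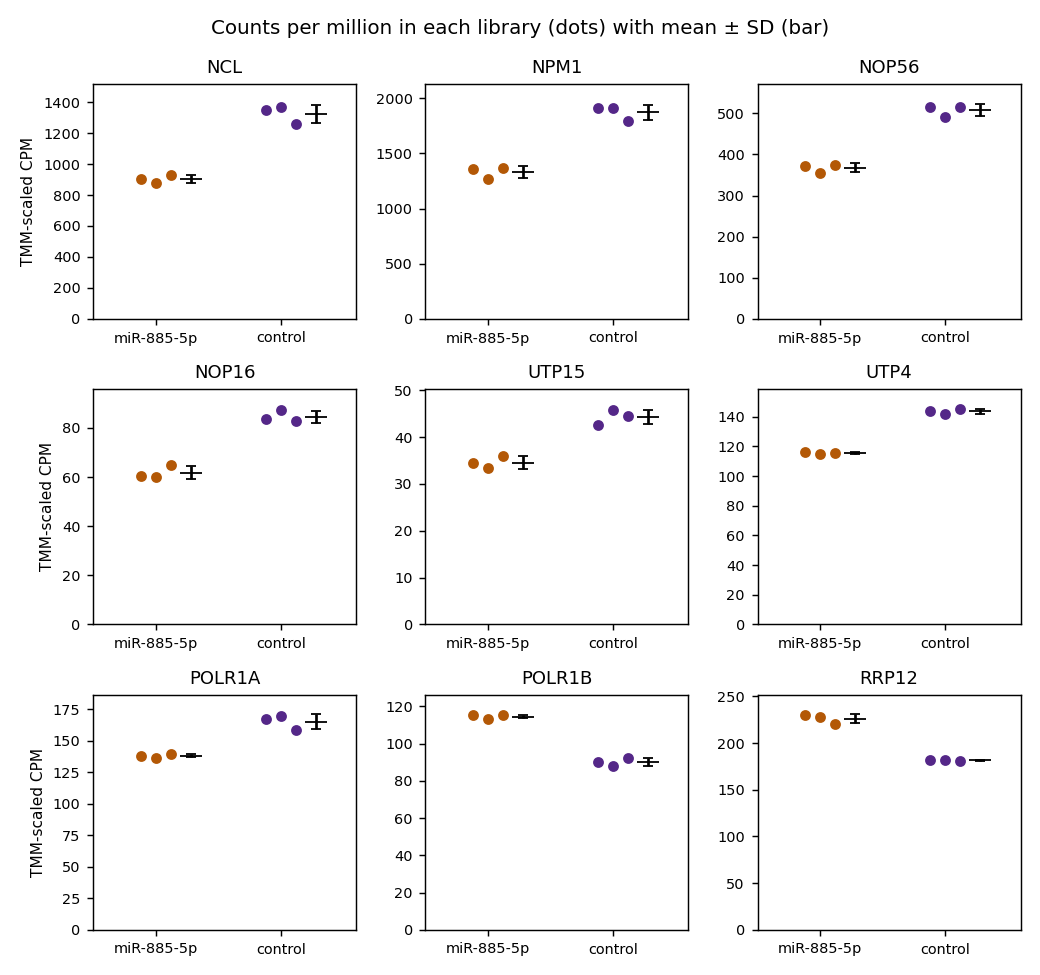
TMM-scaled CPM of 9 genes in each miR-885-5p library (left) and control library (right) as dots, with the mean and SD of 3 libraries as a bar; every vertical axis starts at 0. The groups do not overlap in any of the 9 genes: 7 are lower with miR-885-5p and POLR1B and RRP12 are higher.

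The box C/D particle guides methylation of the ribose in ribosomal RNA, and all 3 of its proteins tested here fell. NOP56, a scaffold protein of the particle, had 373, 355 and 374 CPM with miR-885-5p, against 516, 491 and 516 CPM in control cells (log2 fold change -0.47, SE 0.04, adjusted p = 8.31e-06). NOP58, its partner scaffold, had 107, 102 and 100.4 CPM with miR-885-5p, against 129, 133 and 129.9 CPM in control cells (log2 fold change -0.34, SE 0.04, adjusted p = 6.83e-05). FBL, or fibrillarin, is the methyltransferase itself, and its fall was smaller than that of either scaffold gene, with 302, 287 and 305 CPM in miR-885-5p libraries and 339, 343 and 323 CPM in control libraries (log2 fold change -0.17, SE 0.04, adjusted p = 0.00520). The groups of all 3 genes stood apart, and whether the folds of the 3 genes differ from each other was not tested.

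Of the 4 proteins of the box H/ACA particle, which guides pseudouridylation, 2 fell. DKC1, or dyskerin, the pseudouridine synthase, had 138, 130.1 and 131 CPM with miR-885-5p, against 159, 149.8 and 164 CPM in control cells (log2 fold change -0.24, SE 0.04, adjusted p = 0.00125). NHP2, a core subunit that binds the guide RNA, had 125 CPM in each of the 3 miR-885-5p libraries, against 150.3, 148 and 148 CPM in control libraries (log2 fold change -0.25, SE 0.03, adjusted p = 1.79e-04). The small core subunits NOP10 and GAR1 did not pass the threshold. NOP10 had 63.2, 56.5 and 61.6 CPM with miR-885-5p, against 62.7, 58.0 and 67.4 CPM in control cells (adjusted p = 0.511), and its groups overlapped. GAR1 had 30.1, 29.97 and 33.5 CPM with miR-885-5p, against 36.4, 38.1 and 30.4 CPM in control cells (log2 fold change -0.16, adjusted p = 0.140), where only control library 3 reached into the miR-885-5p range. Without control library 3 GAR1 passed the threshold, with a log2 fold change of -0.26 and adjusted p = 0.00745.

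The genes of RNA polymerase I transcription went in both directions. POLR1A and POLR1B encode the 2 large subunits that form the active site, and they moved in opposite ways. POLR1A had 138, 137 and 139 CPM with miR-885-5p, against 167, 169.6 and 158 CPM in control cells (log2 fold change -0.26, SE 0.04, adjusted p = 3.74e-04). POLR1B had 115, 113 and 115 CPM with miR-885-5p, against 89.9, 87.8 and 92.4 CPM in control cells (log2 fold change 0.35, SE 0.04, adjusted p = 4.41e-05). The groups overlapped in neither gene.

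MYBBP1A, a nucleolar protein known to repress transcription of the ribosomal DNA, also rose, with 196, 207 and 194 CPM in miR-885-5p libraries and 185, 186 and 177 CPM in control libraries (log2 fold change 0.12, SE 0.04, adjusted p = 0.0267). Its call ended without miR-885-5p library 2 (adjusted p = 0.108) and without control library 1 (adjusted p = 0.0601). RRN3, the initiation factor that ties polymerase I to growth signals, had 68.5, 72.9 and 72.1 CPM with miR-885-5p, against 67.4, 65.8 and 67.9 CPM in control cells. Its groups did not overlap, but it did not pass the threshold (log2 fold change 0.09, adjusted p = 0.121), and 2 RRN3 pseudogenes are annotated.

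The other 4 genes of this role fell. UBTF, the upstream binding factor that keeps ribosomal DNA open, had a log2 fold change of -0.21 (adjusted p = 0.0117), with 197, 191 and 201 CPM in miR-885-5p libraries and 222, 249 and 210.1 CPM in control libraries. DDX21, an RNA helicase that links polymerase I transcription with processing, changed by -0.18 (adjusted p = 0.00133), and LYAR, a nucleolar zinc finger protein, by -0.26 (adjusted p = 0.00938). POLR1E, a subunit that helps the enzyme to initiate, changed by -0.15 (adjusted p = 0.0159). Its call ended without miR-885-5p library 2 (adjusted p = 0.0661), without control library 1 (adjusted p = 0.0653) and under scaling by total counts (adjusted p = 0.0751).

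The small-subunit processome is the large particle that forms on the young precursor and includes the U3 small nucleolar RNA. Of its 9 genes 5 fell and none rose. UTP4, UTP15, WDR43, WDR75 and HEATR1 encode parts of the subcomplex that binds the precursor first and that, in yeast and human cells, is also tied to ribosomal DNA transcription. UTP4 had 116, 115 and 115 CPM with miR-885-5p, against 144, 142 and 145 CPM in control cells (log2 fold change -0.31, SE 0.03, adjusted p = 4.79e-05). UTP15 had 34.4, 33.4 and 36.0 CPM with miR-885-5p, against 42.6, 45.7 and 44.6 CPM in control cells (log2 fold change -0.36, SE 0.05, adjusted p = 4.08e-04). WDR43 had 98.2, 96.4 and 103 CPM with miR-885-5p, against 124, 134 and 119.9 CPM in control cells (log2 fold change -0.35, adjusted p = 2.42e-04). In each of these 3 genes the lowest control library was above the highest miR-885-5p library.

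Within the same subcomplex WDR75 and HEATR1 did not pass the threshold, although the groups of both stood apart by small margins. WDR75 had 77.2, 75.3 and 73.6 CPM with miR-885-5p, against 80.0, 80.1 and 77.4 CPM in control cells (adjusted p = 0.170). HEATR1 had 226, 224 and 223 CPM with miR-885-5p, against 218, 210.4 and 222 CPM in control cells (log2 fold change 0.05, adjusted p = 0.274). That some of the 5 fell and others did not pass is not a test of a difference between them.

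Among the other processome genes, UTP20, a very large scaffold protein, had 104, 111 and 108 CPM with miR-885-5p, against 134, 129 and 131 CPM in control cells (log2 fold change -0.29, SE 0.04, adjusted p = 1.92e-04). NOC4L and NOP14 encode partners of one complex. NOC4L changed by -0.22 (adjusted p = 0.00551). NOP14 had nearly the same log2 fold change, -0.20, with 83.9, 84.5 and 91.5 CPM in miR-885-5p libraries and 101, 111 and 86.8 CPM in control libraries, but a wider spread (adjusted p = 0.0546). It passed the threshold without control library 3 (log2 fold change -0.29, adjusted p = 9.06e-04) and with DESeq2 (adjusted p = 0.0181), and an antisense gene, NOP14-AS1, overlaps it. RRP9, a protein of the U3 particle, had 43.5, 41.0 and 41.1 CPM with miR-885-5p, against 45.3, 39.5 and 47.4 CPM in control cells (adjusted p = 0.405).

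The 4 factors of late small-subunit maturation, which act as the particle is exported and finished, had a median log2 fold change of -0.02. RRP12, an export factor, rose, with 229.6, 228 and 221 CPM in miR-885-5p libraries and 182, 181 and 181 CPM in control libraries (log2 fold change 0.32, SE 0.03, adjusted p = 4.17e-05). LTV1, an assembly factor of the small-subunit head, fell, with 39.8, 34.6 and 37.1 CPM in miR-885-5p libraries and 45.9, 44.0 and 39.6 CPM in control libraries (log2 fold change -0.22, SE 0.07, adjusted p = 0.0277). LTV1 was the only one of the 29 genes past the threshold whose groups overlapped. Its call was lost without miR-885-5p library 2 or 3 and without control library 1 or 2, with adjusted p from 0.0584 to 0.112, and under scaling by total counts (adjusted p = 0.0652).

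BYSL, or bystin, had 42.3, 44.0 and 43.7 CPM with miR-885-5p, against 43.1, 42.8 and 47.6 CPM in control cells (adjusted p = 0.593). PNO1, which holds the end of the small-subunit RNA until it is cut, had 40.1, 41.1 and 43.6 CPM with miR-885-5p, against 42.3, 35.0 and 46.9 CPM in control cells (log2 fold change 0.01, adjusted p = 0.953). The groups overlapped in both genes.

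Large-subunit assembly had 7 of 9 genes lower and none higher. NOP16, a nucleolar assembly factor, fell most, with 60.4, 59.9 and 64.7 CPM in miR-885-5p libraries and 83.4, 87.3 and 82.9 CPM in control libraries (log2 fold change -0.45, SE 0.05, adjusted p = 3.29e-05). RRP1B, a nucleolar protein of the early large-subunit particle, had 94.1, 93.1 and 90.7 CPM with miR-885-5p, against 119, 114 and 117 CPM in control cells (log2 fold change -0.33, SE 0.04, adjusted p = 5.42e-05). PES1, BOP1 and WDR12 form a single complex that is required for processing of the large-subunit RNAs. BOP1 fell by 0.35 on the log2 scale (adjusted p = 5.74e-05) and PES1 fell by 0.22 (adjusted p = 6.41e-04), with groups that did not overlap. WDR12 had 80.1, 81.5 and 79.4 CPM with miR-885-5p, against 75.4, 81.2 and 77.0 CPM in control cells (log2 fold change 0.05, adjusted p = 0.401).

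NOC2L and NOC3L encode partners in moving the large-subunit precursor towards the nucleoplasm in yeast. NOC2L had 286, 291 and 280.3 CPM with miR-885-5p, against 355, 348 and 363 CPM in control cells (log2 fold change -0.31, SE 0.04, adjusted p = 5.58e-05). NOC3L had 87.1, 83.9 and 86.5 CPM with miR-885-5p, against 87.5, 81.3 and 83.0 CPM in control cells (adjusted p = 0.558), with overlapping groups. GNL3, or nucleostemin, a nucleolar GTP-binding protein of proliferating cells, changed by -0.32 (adjusted p = 7.16e-04), and NOP2, a methyltransferase of the large-subunit RNA, by -0.24 (adjusted p = 4.89e-04).

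Levels were also summed over roles. The 3 abundant nucleolar proteins together had 2583, 2463 and 2621 CPM with miR-885-5p, against 3636, 3660 and 3421 CPM in control cells. Large-subunit assembly genes summed to 1125, 1123 and 1125 CPM with miR-885-5p, against 1362, 1339 and 1340 CPM in control cells. Only the late small-subunit sum was higher in every miR-885-5p library, with 352, 348 and 345 CPM against 313, 303 and 315 CPM in control cells. RRP12 contributed most to this sum and was the only gene of the 4 that rose. LTV1 fell, and BYSL and PNO1 did not pass the threshold. All 40 genes took 0.725%, 0.709% and 0.725% of the counts in miR-885-5p libraries, against 0.867%, 0.859% and 0.844% in control libraries.

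Levels between genes were compared with the FPKM values that the authors deposited, which are scaled by transcript length. In control cells NPM1 was highest, with a mean of 1090 FPKM, followed by NCL at 301, FBL at 269, NOP56 at 209 and NHP2 at 156 FPKM. WDR12 was lowest, at 8.65 FPKM, below UTP15 at 9.70 and POLR1A at 11.9 FPKM. Across the 40 genes Spearman's rho between mean FPKM over the 6 libraries and log2 fold change was -0.37, and it was -0.11 across all 14034 genes; both are descriptions across genes that share libraries. POLR1B at 18.0 FPKM, MYBBP1A at 35.0 FPKM and RRP12 at 37.2 FPKM, the genes that rose, lay in the lower and middle part of the range in control cells.

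**Figure D3:**
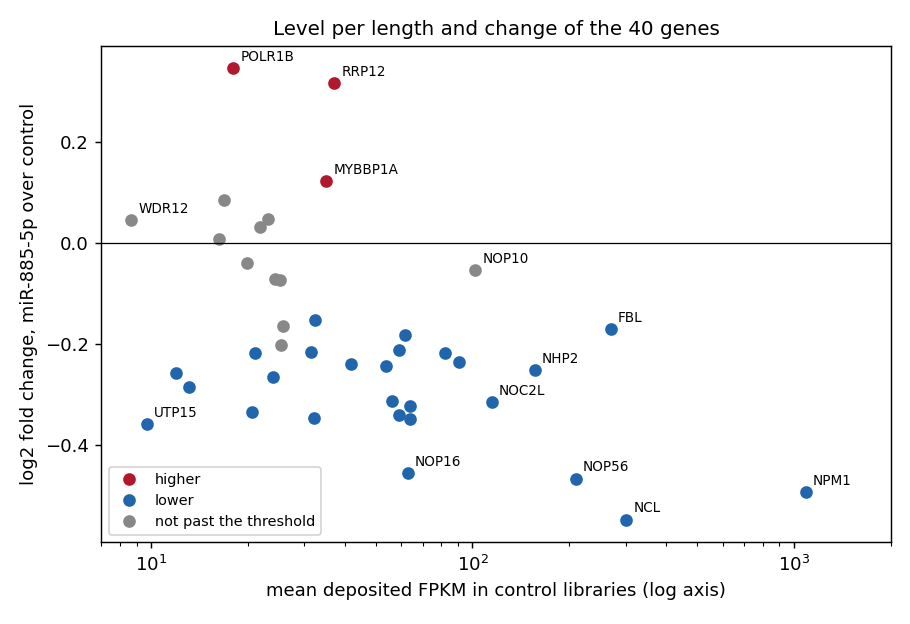
Mean deposited FPKM in the 3 control libraries (horizontal, log axis) against log2 fold change, miR-885-5p over control (vertical), for the 40 genes. Of the 5 genes with the highest level, NPM1, NCL, FBL, NOP56 and NHP2, all 5 fell, and the 3 genes that rose had 18.0 to 37.2 FPKM.

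Some of the genes are hosts of small nucleolar RNA genes, which are released from introns. GENCODE 29 places at least 1 such gene on the same strand within 6 of the 40: NCL, NOP56, NOP58, DKC1, WDR43 and GNL3. All 6 fell, by 0.24 to 0.55 on the log2 scale (median log2 fold change -0.34), while 20 of the other 34 genes fell and 3 rose (median log2 fold change -0.21). This feature was looked at with the fold changes known and was given no test, and small nucleolar RNAs were not analysed here.

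Position on the chromosome moved with part of the result. NPM1, NOP16, NHP2 and UTP15 lie on chromosome 5, where 41.1% of 569 tested genes were lower and 16.2% higher, and all 4 fell. The 50 tested neighbours of NOP16 had a median log2 fold change of -0.19, those of NPM1 -0.15 and those of UTP15 -0.14, and the 45 neighbours of NHP2 -0.15. NOC2L lies near the end of chromosome 1, and its 26 neighbours had a median of -0.21. Each of these 5 genes was lower than its neighbours' median, as were 33 of the 40 genes and all 26 that fell. For the 26 this follows largely from their being called lower, and the share of all tested genes below their neighbours is not given here. Genes on chromosomes 22 and 17 were also shifted, with median log2 fold changes of -0.09 and -0.06 over all tested genes, against -0.14 on chromosome 5 and -0.05 on chromosome 1. PES1 lies on chromosome 22 (neighbours' median -0.13), and UBTF (neighbours' median -0.10) and MYBBP1A lie on chromosome 17. Without the 6 genes on chromosomes 1 and 5, 21 of 34 fell and 3 rose. Without those on chromosomes 17 and 22 as well, 19 of 31 fell and 2 rose. The shares of all tested genes off these chromosomes are not given here. The part of these neighbourhoods in the values of single genes was not tested.

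**Figure D4:**
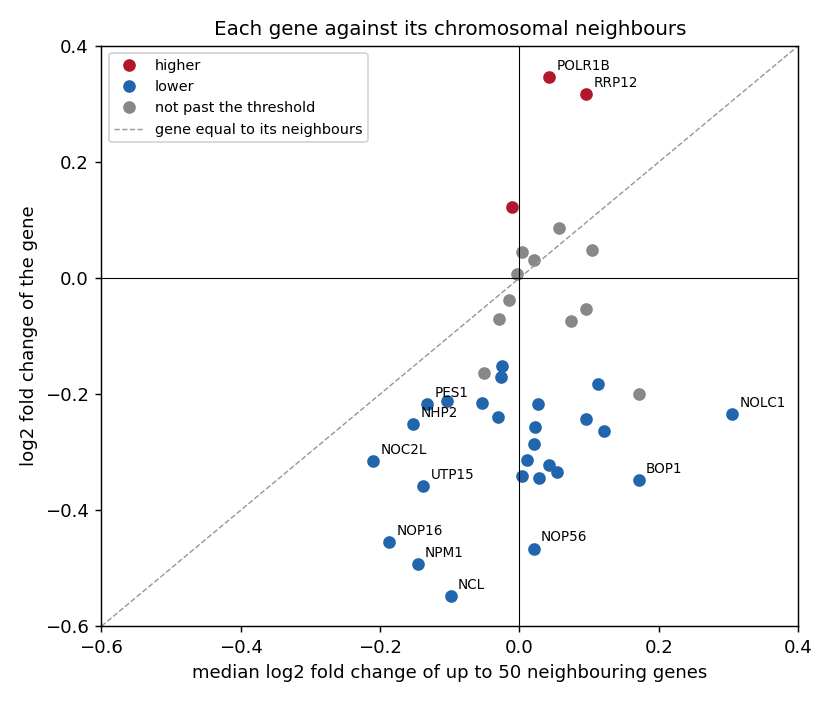
Log2 fold change of each of the 40 genes (vertical) against the median log2 fold change of its tested neighbours on the same chromosome, 25 on each side where the chromosome allows (horizontal). Points below the dashed line are genes lower than their neighbours. All 26 blue points, the genes that fell, lie below it, which follows largely from their being called lower. NOC2L, NOP16, NHP2, NPM1 and UTP15 lie furthest to the left.

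A longer list of 132 other ribosome biogenesis factors was counted the same way. Of these, 53 fell, 23 rose and 56 did not pass (40.2% lower and 17.4% higher; median log2 fold change -0.08). Chromosomes 1, 5, 17 and 22 had the lowest medians among the chromosomes that carry any of the 40 genes. Off them, 29 of 96 of these factors fell and 21 rose. Over all chromosomes 26.5% of tested genes were lower and 26.3% higher, and the share off these chromosomes is not given here. Of 39 processome factors 19 fell and 6 rose. KRR1, a processome factor that binds the small-subunit precursor, had 76.6, 76.8 and 76.2 CPM with miR-885-5p, against 115, 122 and 109 CPM in control cells (log2 fold change -0.59, adjusted p = 5.18e-06). DDX52, an RNA helicase, changed by -0.40 (adjusted p = 2.30e-05), while UTP25 rose by 0.42 (adjusted p = 2.00e-04) and PDCD11, which binds the precursor early, by 0.25 (adjusted p = 1.42e-04).

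In the list of large-subunit factors 20 of 58 fell and 9 rose (34.5% and 15.5%, against 26.5% and 26.3% of all tested genes). MRTO4, which holds the place of a stalk protein on the precursor, had 82.9, 83.0 and 82.2 CPM with miR-885-5p, against 141, 129.7 and 132 CPM in control cells (log2 fold change -0.70, SE 0.04, adjusted p = 1.20e-06); it lies on chromosome 1. NOP53, which recruits the RNA exosome to the precursor in yeast, was the member of the longer list that rose most, with 629.6, 668 and 652 CPM in miR-885-5p libraries and 392, 389 and 392 CPM in control libraries (log2 fold change 0.73, SE 0.04, adjusted p = 3.33e-07). ZNF622, a cytoplasmic maturation factor, rose by 0.36 (adjusted p = 1.47e-04).

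Of 12 late small-subunit factors 6 fell and 3 rose (50% and 25%, against 26.5% and 26.3% of all tested genes). NOB1, the nuclease that makes the final cut of the small-subunit RNA, had 109.8, 113 and 110.3 CPM with miR-885-5p, against 81.5, 84.4 and 86.8 CPM in control cells (log2 fold change 0.40, adjusted p = 2.59e-05). The kinase gene RIOK3 rose by 0.28 (adjusted p = 0.00103). TSR2, the chaperone that carries the protein of RPS26 into the particle, changed by -0.48 (adjusted p = 4.96e-05), with 27.1, 25.9 and 26.9 CPM in miR-885-5p libraries and 36.3, 38.5 and 36.8 CPM in control libraries.

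Among 11 assembly factors of the small nucleolar ribonucleoproteins 6 fell and none rose (54.5% lower, against 26.5% of all tested genes). RUVBL2, an ATPase of the assembly machinery, changed by -0.21 (adjusted p = 4.55e-04) and PIH1D1, an adaptor in the same machinery, by -0.22 (adjusted p = 8.98e-04). Of the 12 further polymerase I genes 5 rose, 2 fell and 5 did not pass. Their shares were 41.7% higher and 16.7% lower, against 26.3% and 26.5% of all tested genes. TCOF1, or treacle, which brings polymerase I and processing factors together, changed by -0.33 (adjusted p = 5.62e-05) and the polymerase I subunit gene CD3EAP by -0.39 (adjusted p = 6.27e-04), while BAZ2A, part of a complex that silences ribosomal DNA, rose by 0.30 (adjusted p = 1.21e-04).

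The genes that encode the ribosomal proteins themselves were mostly higher, whereas 26 of the 40 biogenesis genes and 53 of the 132 other factors were lower. Of 79 cytosolic ribosomal protein genes 63 rose and 2 fell (79.7% and 2.53%, median log2 fold change 0.27). Of all tested genes 26.3% rose and 26.5% fell. The 79 genes took 5.95% to 6.18% of the counts with miR-885-5p, against 4.57% to 5.07% in control cells. The 2 that fell were RPS26 and RPS15, named after their values were seen. RPS26 had 163, 137 and 154 CPM with miR-885-5p, against 206, 241 and 178 CPM in control cells, with groups that did not overlap (log2 fold change -0.46, SE 0.10, adjusted p = 0.00325). When the 79 genes were left out before scaling, the 40 biogenesis genes again had 26 lower and 3 higher. Of 20 factors that assemble the mitochondrial ribosome 6 fell and 1 rose (30% and 5%, median log2 fold change -0.07). The difference between these lists was not tested.

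**Figure D5:**
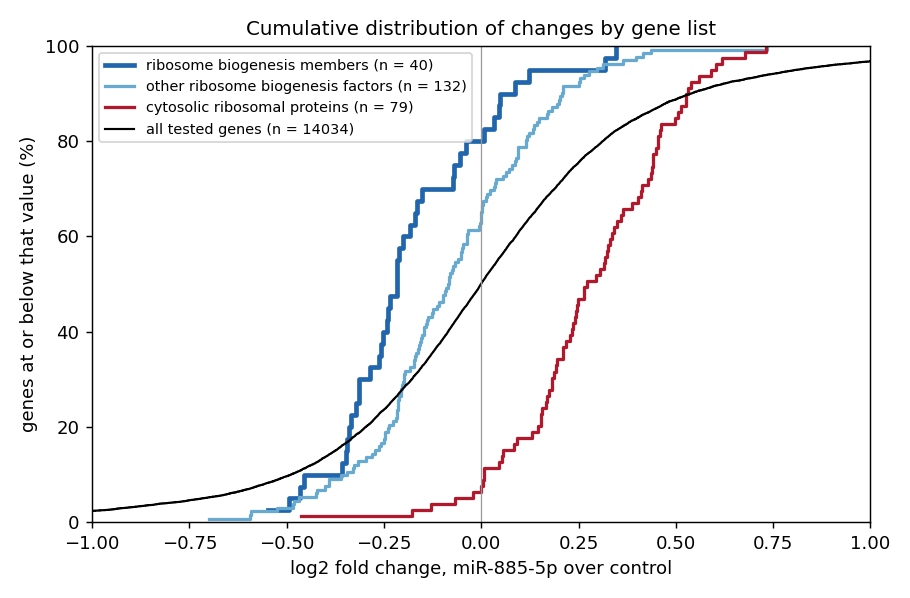
Share of genes (vertical, in percent) at or below each log2 fold change, miR-885-5p over control (horizontal, shown from -1 to 1), for the 40 biogenesis genes, 132 other biogenesis factors, 79 cytosolic ribosomal protein genes and all 14034 tested genes. The line of the 40 genes crosses its middle at -0.22 and that of the other factors at -0.08, left of all genes at 0.00, and the line of the ribosomal protein genes at 0.27.

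MYC and its partners were listed as known regulators of these genes. MYC had 227, 233 and 235 CPM with miR-885-5p, against 270.5, 299 and 245 CPM in control cells, so that control library 3 came closest to the miR-885-5p libraries. Its log2 fold change was -0.23 (SE 0.06), with an adjusted p of 0.0124. MNT, MXD1, MXD3, MXD4 and MXI1 encode proteins that bind MAX in place of MYC and repress its targets, and they did not move as one. MNT, MXD4 and MXI1 rose, MXD3 fell (log2 fold change -0.46, adjusted p = 0.0203) and MXD1 did not pass (log2 fold change 0.29, adjusted p = 0.116). MXD4 had 25.9, 27.9 and 25.8 CPM with miR-885-5p, against 11.1, 9.71 and 10.5 CPM in control cells (log2 fold change 1.35, SE 0.07, adjusted p = 6.91e-07). MNT had 45.5, 50.3 and 45.9 CPM with miR-885-5p, against 32.1, 33.1 and 30.7 CPM in control cells (log2 fold change 0.56, SE 0.06, adjusted p = 3.66e-05). Over the 14 tested genes of this network 6 fell and 4 rose (42.9% and 28.6%, against 26.5% and 26.3% of all tested genes). The part of any of these genes in the values of the biogenesis genes was not tested.

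The size of the changes was small throughout. The median log2 fold change was -0.27 among the 26 genes of the 40 that fell and -0.37 among all 3726 genes that fell. NCL, which fell most, was at 68.4% of control and NPM1 at 71.1%, and POLR1B, which rose most, was at 127%. In a test against a 1.5-fold change, 0 of the 40 genes passed in either direction, while MRTO4 and NOP53 of the longer list did. None of the 40 reached a 1.5-fold change, so none could pass. The share of all tested genes that passed is not given here. In the authors' deposited table, 27 of the 40 genes had p under 0.05 with a negative log2 fold change and 3 with a positive one. That p is not the adjusted p used above, and the share of all tested genes under it is not given here. The sign in that table was the same as here for each of the 29 genes past the threshold. Both use the same counts, so this is not a separate line of evidence. For NOP10, BYSL, PNO1 and NOP14 the deposited log2 fold change equalled that of the DESeq2 fit made here (-0.200903 for NOP14).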

How the data were processed

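JHH-4 RNA was counted in 3 miR-885-5p and 3 control libraries, grouped by sample title. Per the labels' protocols, RNA came from RNeasy columns and libraries from a NEBNext Ultra kit; whether counting used strand is not given. Tools and builds in the submitters' processing notes, without roles, are StringTie 2.2.1, HISAT2 2.0.4, DESeq2 1.38.3 and GRCh38. The deposited table, per its header, gives raw counts and FPKM per gene and library, and a p-value and log2 fold change from the authors' unnamed test. No row summed to under 194 counts. Reads of near-identical copies, and of the genes that overlap 19 of the 40 on the opposite strand, may be mixed.

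In R 4.3.3, edgeR 4.0.16 fitted all rows (quasi-likelihood test after TMM scaling), with Benjamini-Hochberg adjustment; filterByExpr removed 0 rows. The fit was tested on simulated data. FPKM served only for levels, and seed matches, motifs and positions got no test. Members, lists and the rule for named genes were chosen with earlier results of these data known. The rule took the 2 smallest and the largest adjusted p of each role, the 5 largest falls and rises, the 2 smallest adjusted p of each other list with up to 2 in the opposite direction, and MYC; all other genes were named after their values were seen. Alternatives were DESeq2 1.42.0, limma-voom (limma 3.58.1), 3 scalings, 2 filters, a replicate block, a test against a 1.5-fold change, named genes only, genes off chromosome 1, leaving out each library and, added after the data were seen, leaving out ribosomal protein genes and counting genes off chromosomes 1, 5, 17 and 22. One marker gene is not reported here.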

Additional observations from a re-analysis of the deposited data

How the results depend on the processing

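Of the 40 genes, 26 fell and 3 rose in the fit as reported. With DESeq2, limma-voom, 3 other scalings, 2 other filters, named genes only, genes off chromosome 1 and without the ribosomal protein genes, 24 to 27 fell and 3 or 4 rose. Leaving out 1 library at a time gave 24 to 28 lower and 2 to 3 higher, and for the 132 other factors 46 to 59 lower and 16 to 25 higher. The shares of all tested genes in those fits are not given here. Off chromosomes 1, 5, 17 and 22, an alternative chosen after seeing the data, 19 of 31 fell and 2 rose, with fewer genes counted. Of the other factors 29 of 96 fell and 21 rose there. Matching shares of all tested genes are not given here. The test against a 1.5-fold change, a size that none of the 40 reached, gave 0 lower and 0 higher of them. Of the 132 it gave 1 lower and 1 higher. Under total-count scaling, which moved the median log2 fold change of all genes to 0.05, 44 of the 132 fell and 30 rose, against 53 and 23 in the fit as reported; over all genes it called 4357 higher and 3134 lower, against 3697 and 3726. The log2 fold change changed sign in 3 genes that passed under no setting. NOP10 ran from -0.108 without control library 2 to 0.00105 without control library 3. BYSL ran from -0.0656 without control library 2 to 0.0131 without control library 3, and was at 0.00947 under total-count scaling. PNO1 ran from -0.0998 without control library 2 to 0.108 without control library 3, and was at -0.0250 without miR-885-5p library 3. RRN3 passed under total-count scaling (log2 fold change 0.13, adjusted p = 0.0287). The call was the same under all 16 settings other than the 1.5-fold test and the chromosome counts for 34 of the 40 genes; POLR1E, RRN3, MYBBP1A, GAR1, NOP14 and LTV1 changed theirs, and the cause was not tested.

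The replicate block left 26 genes lower and 3 higher of the 40, and 48 lower and 17 higher of the 132. Libraries with the same number did not deviate together (correlations of -0.18, -0.06 and -0.15), so the numbers were not taken as pairs. Each of the 40 genes had 1420 or more counts in each library; what limited the calls was not tested.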
